A study of Mus musculus with 18 samples.

Results

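The output of the RAS-MAPK pathway switches on genes, among them inhibitors through which the pathway restrains itself. Here 10 genes that it induces were followed through mouse liver and DEN-induced liver tumours. They were Dusp4, Dusp5, Dusp6, Spry1, Spry2, Spry4, Spred1, Etv4, Etv5 and Phlda1, taken by symbol from the 54838 genes of the RNA-seq table, and each symbol matched 1 gene. All 10 are called feedback genes for short, although Etv4 and Etv5 encode transcription factors and Phlda1 is a gene that growth factors induce. The 18 samples formed 6 groups of 3, and all came from C57BL/6 mice aged 36 weeks. Wild-type mice (WT) and mice with a global knockout of miR-181ab1 (GKO) gave tumours and the surrounding non-tumour livers after a single intraperitoneal injection of diethylnitrosamine (DEN, a liver carcinogen) at 25 mg/kg on postnatal day 12. Normal livers came from untreated WT and GKO mice. The deletion in GKO mice is not limited to hepatocytes, so any cell type of the tissue could contribute to a difference between genotypes. The legend of a supplementary plot of tumour and non-tumour mRNA levels gives 3 mice in each group. The labels do not tie samples to mice, so which tumour came from the same mouse as which non-tumour liver is not known here, and p-values measure the spread between these samples.

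When a growth factor binds its receptor, adaptor proteins load RAS with GTP, and RAS starts a relay of kinases (RAF, MEK and ERK). Active ERK enters the nucleus and induces, among others, phosphatases that remove the activating phosphates from ERK itself (the Dusp genes), Sprouty and Spred proteins that block the relay at the level of RAS and RAF, and the ETS transcription factors Etv4 and Etv5. Levels of these transcripts are widely used as a readout of ERK output, because ERK activity itself is not visible in RNA. Liver tumours that DEN raises in mice often carry activating mutations of Hras, Braf or Egfr. Mutations were not analysed here.

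The genes deleted in GKO mice encode miR-181a and miR-181b, whose mature sequences are shown because a microRNA acts on transcripts that pair with its seed. In the RefSeq sequences (GRCm38.p6) the products of both genes, on chromosome 1 at chr1:137966468-137966490 and chr1:137966650-137966673 of the plus strand, carried the same seed, bases 2 to 8, printed in capitals.
mmu-miR-181a-5p: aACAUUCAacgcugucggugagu
mmu-miR-181b-5p: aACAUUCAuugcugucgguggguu
The same mature miR-181a and miR-181b are also encoded on chromosome 2, and miR-181c and miR-181d share the seed, so GKO mice keep other genes of this family. The RNA-seq libraries did not check the deletion: 17 of 18 samples had 0 reads on Mir181a-1, and the other, GKO tumour 3, had 1 read. All 18 samples were at 0 on Mir181b-1, where a count of 0 allows up to 3 reads.

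Some of the feedback genes held a match to that seed in the longest annotated 3′ UTR (GENCODE M21, mm10). The match was sought on the transcript strand as TGAATGT, or as TGAATGTA for the 8-base form that ends in A. By this count 4 of 10 feedback genes (40.0%) had a site, against 3451 of 21045 genes with a 3′ UTR (16.4%). The 3′ UTRs had a median of 1110 bases in the feedback genes and 960 bases in all genes. Among the genes with a site, Spred1 (4330 bases) and Spry4 (3559 bases) had the longest 3′ UTRs of the 10, and Dusp5 had 1109 and Phlda1 612 bases. The shares were not adjusted for length. Spry4 held 2 sites, both of the 8-base form. The other 3 genes held 1 site each, printed here with the matching bases in capitals, at chr19:53542310-53542331 for Dusp5, chr2:117181389-117181410 for Spred1 and chr10:111508383-111508404 for Phlda1, all on the plus strand.
Dusp5 3′ UTR: cccgtaaacccatgTGAATGTg
Spred1 3′ UTR: ttttctgttaaaatTGAATGTc
Phlda1 3′ UTR: atctaagacatttcTGAATGTA
Dusp4, Dusp6, Spry1, Spry2, Etv4 and Etv5 had no such match in this window. A match is a feature of the sequence and does not show that miR-181 acts on the transcript.

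Levels are in TPM, a unit that corrects the reads of a gene for its length and for the size of the library. Reads on genes, recovered from the deposited TPM, ranged from 11921825 in WT normal liver 1 to 20745854 in GKO tumour 1. The thinnest of the feedback genes was Etv4, with 0 to 6 reads in each liver without tumour and 8 to 127 reads in each tumour. WT non-tumour 2 stood apart from WT non-tumours 1 and 3 over all genes (Pearson's r of log2 values 0.929 and 0.933, against 0.970 between those 2). WT tumours 1 and 2 were closer to each other (r = 0.982) than to WT tumour 3 (0.919 and 0.921). GKO tumour 1 was the lowest of the 6 tumours for most feedback genes, as described below. Several results that rest on these libraries are given with and without them.

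Tumours expressed more of nearly all feedback genes than non-tumour livers. Across both genotypes (6 tumours against 6 non-tumour livers, genotype as covariate) 8 of 10 rose at an adjusted p under 0.05 in limma's moderated test on log2(TPM + 1), and none was called lower. Among the 14106 genes tested, 12.2% were called higher and 20.1% were called in either direction. The median difference was 1.14 (log2) over the 10 feedback genes and 0.08 over all genes tested. After median centring, which moved the median of all genes to -0.05, the same 8 feedback genes were called higher, although 1378 genes were then higher and 1721 lower in place of 1719 and 1110. Etv4 passed the filter on low values only through the tumours, and 7 of the other 9 were called. The 2 genes not called were Spred1, with a difference of 0.57, and Phlda1, with a difference of -1.17. Without WT non-tumour 2 and GKO tumour 1, an alternative chosen after seeing the data, 9 genes were called higher, Spred1 being the addition.

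**Figure D1:**
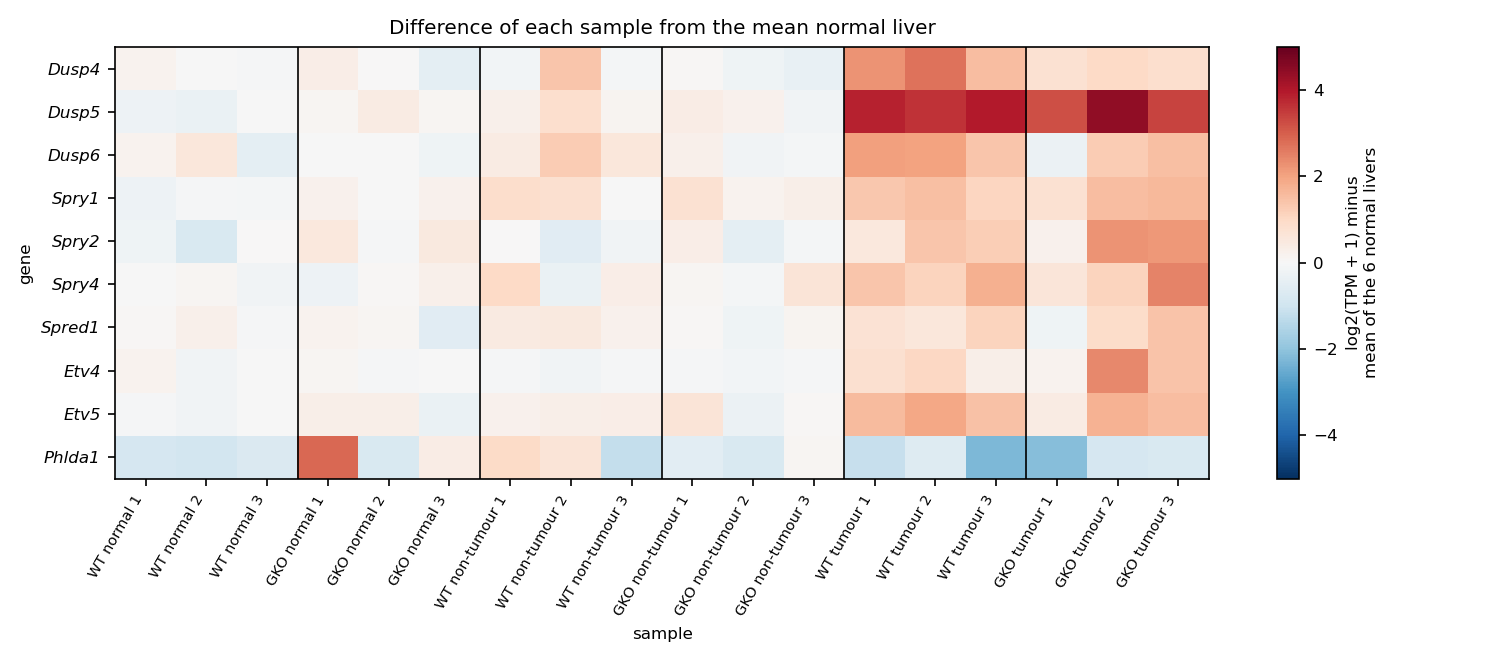
Heat map of the 10 feedback genes (rows) in the 18 samples (columns, grouped by genotype and tissue), with colour giving log2(TPM + 1) minus the mean of the 6 normal livers. The tumour columns are red in 9 of the 10 rows except in GKO tumour 1, where Dusp5 is the row that stays deep red, and the Phlda1 row has its highest value in GKO normal 1.

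Dusp5 had the largest difference on the log2(TPM + 1) scale, which understates the change of a gene as low as Etv4. It encodes a nuclear phosphatase that acts on ERK, and lies at chr19:53529109-53542431 on the plus strand. The 3 WT tumours held 23.6, 20.04 and 25.5 TPM, and the 3 GKO tumours, in the order of their numbers, 14.8, 35.5 and 16.8 TPM. The non-tumour livers held 1.03, 2.03 and 0.870 TPM in WT and 1.19, 0.981 and 0.502 TPM in GKO mice, and the 6 normal livers 0.364 to 1.25 TPM. Every tumour was thus above every liver by a wide margin, in both genotypes. The ratio of the means was 20.7 for tumours over non-tumour livers and 31.1 for tumours over normal livers. On the log2 scale the difference from non-tumour livers was 3.47 (SE 0.22, adjusted p = 3.34e-06, limma), the 5th smallest p-value of all genes tested. No gene of the other lists of the pathway except Egr1 had a larger difference.

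Dusp4, another nuclear phosphatase of the family (chr8:34807297-34819894, plus strand), was nearly silent in most livers. WT tumours stood at 5.61, 8.22 and 3.06 TPM, and GKO tumours at 1.38, 1.78 and 1.47 TPM. Non-tumour livers had 0.267, 2.59 and 0.305 TPM in WT and 0.466, 0.186 and 0.0905 TPM in GKO mice. Normal livers had 0 to 0.759 TPM, and the 0 was GKO normal 3, where a count of 0 allows up to 3 reads. The exception among the livers was WT non-tumour 2, which lay above all 3 GKO tumours. Over both genotypes the difference was 1.41 (SE 0.29, adjusted p = 0.00585, limma), and every tumour was above every normal liver.

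Dusp6, the cytoplasmic phosphatase that is specific for ERK, had the highest mean level of the 3 Dusp genes in every tissue, and TPM allows that comparison because it is scaled per length. It averaged 14.9 ± 4.0 TPM in normal livers, 20.4 ± 8.8 TPM in non-tumour livers and 42.7 ± 18.9 TPM in tumours (SD, n = 6 each). WT tumours held 64.1, 61.1 and 39.9 TPM, and GKO tumours held 11.7, 36.9 and 42.7 TPM. GKO tumour 1 was therefore below the median of the non-tumour livers (18.6 TPM), while WT non-tumour 2, at 36.8 TPM, reached the level of GKO tumour 2. The difference between tumours and non-tumour livers was 0.95 (SE 0.29, adjusted p = 0.0385, limma). It passed the threshold by little: the adjusted p was between 0.0730 and 0.0910 when any one of 8 of the 12 samples was left out, and 0.0762 with WT tumours 1 and 2 averaged. The call was also lost with no filter on low values and with voom on recovered reads.

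**Figure D2:**
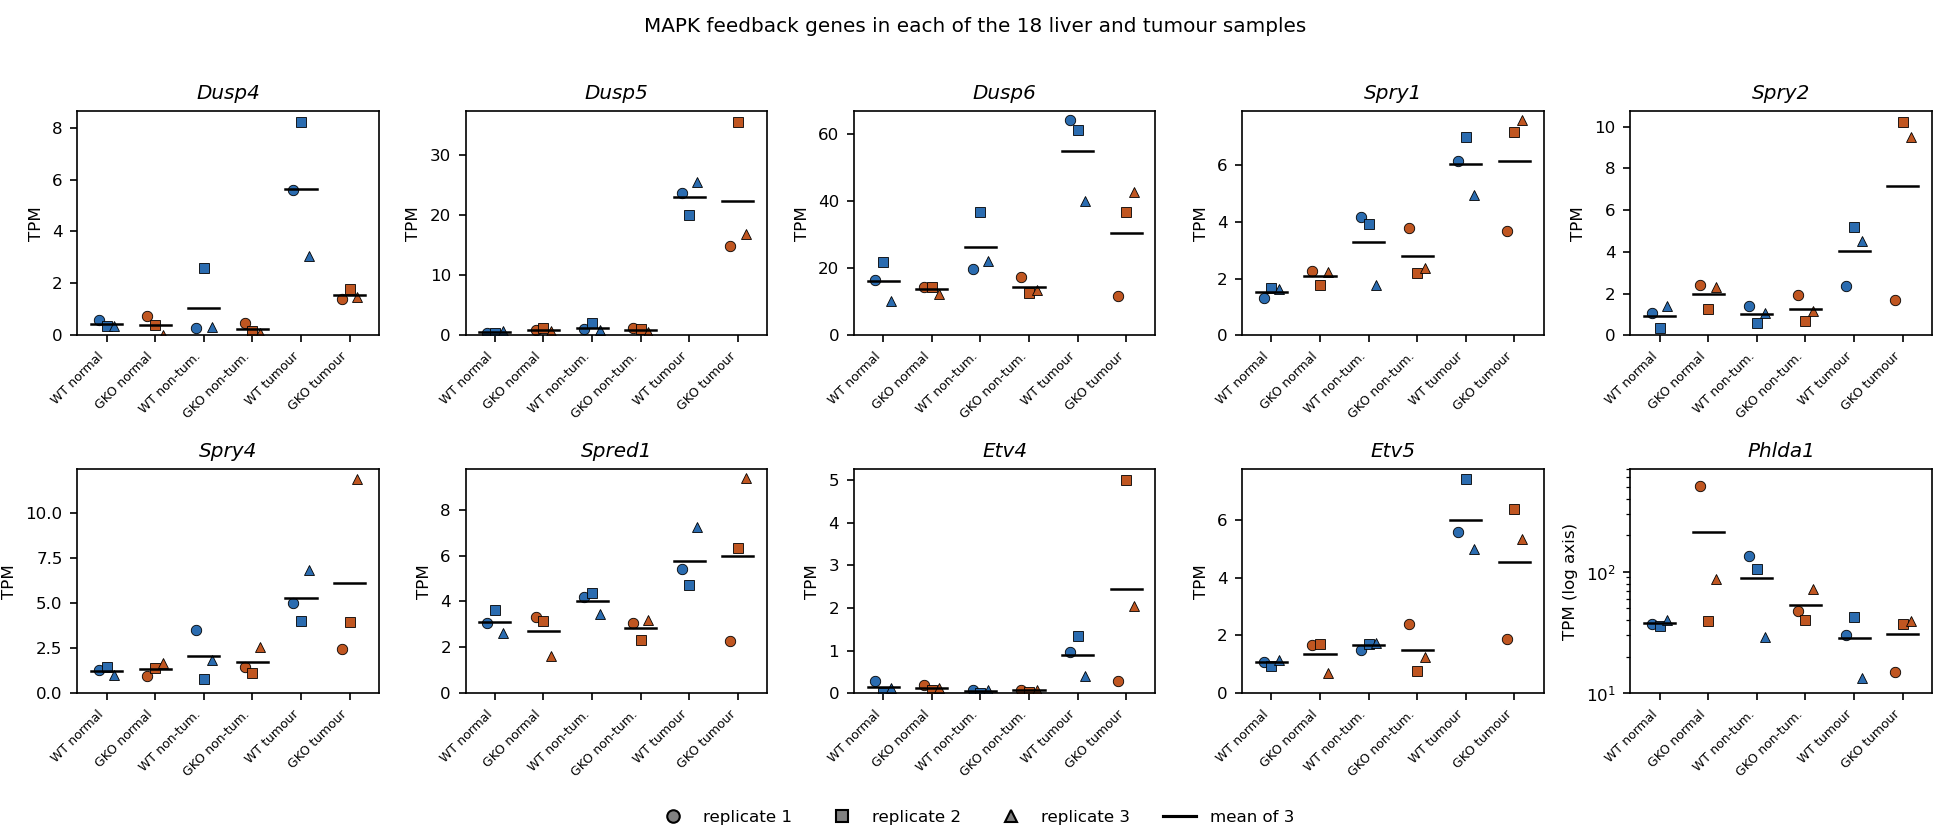
TPM of each feedback gene (1 panel each, linear axes from 0 except the log axis of Phlda1) in the 3 samples of each group, with WT in blue, GKO in orange, symbols for the replicate number and a line at the mean of 3. Dusp5 separates all 6 tumours (14.8 to 35.5 TPM) from all 12 livers (0.364 to 2.03 TPM), whereas Phlda1 is not higher in tumours.

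The Sprouty genes encode inhibitors that act between receptors and RAF, and all 3 rose. Spry2 increased most, to 2.38, 5.19 and 4.51 TPM in WT tumours and, among GKO tumours, to 1.71, 10.3 and 9.52 TPM, from 0.587 to 1.96 TPM in the 6 non-tumour livers. The ratio of the means was 4.87, and the difference 1.46 (SE 0.33, adjusted p = 0.0104, limma). Apart from GKO tumour 1, each tumour was above each non-tumour liver. Spry4 rose from a mean of 1.89 to 5.70 TPM, with a difference of 1.15 (SE 0.32, adjusted p = 0.0243, limma, and 0.0548 without GKO non-tumour 2). Its highest tumour was GKO tumour 3 at 11.9 TPM, and its lowest, GKO tumour 1 at 2.45 TPM, fell within the range of the non-tumour livers (0.801 to 3.50 TPM). Spry1 rose from 3.04 to 6.09 TPM, with a difference of 0.82 (SE 0.21, adjusted p = 0.0178, limma), and GKO tumour 1 (3.69 TPM) was again the only tumour within the range of non-tumour livers.

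Spred1, which recruits the RAS inhibitor neurofibromin to the membrane, was expressed at 2.90 ± 0.71 TPM in normal livers, 3.43 ± 0.77 TPM in non-tumour livers and 5.89 ± 2.39 TPM in tumours (SD, n = 6 each). Its tumour values of 5.40, 4.70 and 7.23 TPM in WT and 6.31 and 9.37 TPM in GKO tumours 2 and 3 were above all livers, but GKO tumour 1 (2.30 TPM) was below all non-tumour livers. The difference of 0.57 (SE 0.24) did not pass the threshold (adjusted p = 0.111, limma). Leaving out GKO tumour 1 gave 0.76 and an adjusted p of 0.0213.

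Etv4 and Etv5 encode ETS transcription factors of the PEA3 group. Etv4 was almost absent from livers without tumour, with at most 0.285 TPM, and 2 of these livers had 0 reads. WT tumours had 0.974, 1.33 and 0.402 TPM, and GKO tumours had 0.279, 5.0 and 2.04 TPM. All 6 tumours were above all 6 non-tumour livers, which only Dusp5 and Etv4 showed among the 10 genes (4.76% of all genes tested did so). The difference was 1.12 (SE 0.31, adjusted p = 0.0232, limma, and 0.0531 without GKO non-tumour 3), and without GKO tumour 2 the gene did not pass the filter on low values and was not tested. No fold is given because the non-tumour livers held 0 to 2 reads each. Etv5 rose from 1.57 ± 0.54 to 5.26 ± 1.87 TPM (SD, n = 6 each), a difference of 1.24 (SE 0.24, adjusted p = 0.00396, limma). WT tumours had 5.57, 7.42 and 4.998 TPM of Etv5 and GKO tumours had 1.87, 6.38 and 5.34 TPM, and only GKO tumour 1 was within the non-tumour range of 0.778 to 2.40 TPM.

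Phlda1, a pleckstrin homology-like domain gene that growth factors induce, was the one member that was not higher in tumours. In tumours it held 30.3, 42.5 and 13.4 TPM in WT and 14.9, 37.5 and 39.1 TPM in GKO mice. Non-tumour livers had 134, 106 and 29.0 TPM in WT and 47.1, 39.9 and 72.8 TPM in GKO mice. Normal livers ranged from 35.8 TPM to 505 TPM, the latter in GKO normal 1, with a median of 40.0 TPM. Over the 12 livers without tumour the highest value was 17.4 times the lowest, a wider range than that of any other feedback gene that was detected in all of them. The difference between tumours and non-tumour livers was -1.17 (SE 0.41, adjusted p = 0.0658, limma). It was called lower when samples were scaled by median centring (adjusted p = 0.0350), by quantile normalization (0.0396) or with voom on recovered reads (0.0364), and also without WT non-tumour 3 (0.0297), so its call depends on the scaling and on that library.

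The exact permutation test within genotype (2-sided, 400 arrangements) does not use limma's model and cannot give less than 0.005. That smallest value was reached by Dusp4, Dusp5 and Etv4 in tumours against non-tumour livers. The p was 0.010 for Spry1, Spry2, Spry4 and Etv5, 0.030 for Dusp6, 0.045 for Phlda1 (in the lower direction) and 0.055 for Spred1 in the same exact test.

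Against normal livers, which never met DEN, 9 of 10 feedback genes rose and Phlda1 had a difference of -1.30 (SE 0.56, adjusted p = 0.0733, limma), which was -0.75 without GKO normal 1. Dusp4 and Etv4 passed the filter on low values only through the tumours, and 7 of the other 8 were called. The background was much higher here: 37.2% of the 13867 genes tested were called higher and 47.2% in either direction, and the median over all genes was 0.29. The median over the feedback genes was 1.32. Dusp4, Dusp5, Spry1, Spry4 and Etv5 did not overlap between the 6 tumours and the 6 normal livers (20.3% of genes tested were higher without overlap). Dusp5 had the largest difference, 3.74 (SE 0.20, adjusted p = 5.31e-07, limma), followed by Dusp4 with 1.52 and Etv5 with 1.45. Median centring, which moved the median of all genes from 0.29 to -0.07, kept 7 genes higher: the differences of Spred1 (0.39) and Etv4 (0.66) were no longer called, and Phlda1 was called lower (-1.66). Leaving out GKO normal 3 or GKO tumour 2 also lost the call of Spred1 (adjusted p = 0.0557 and 0.0503, limma), and leaving out WT tumour 2 or GKO normal 2 made Phlda1 called lower (0.0464 and 0.0427). This comparison shares its tumours with the previous one, so the 2 are not independent.

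Within WT mice alone (3 against 3), Dusp5 (3.41, SE 0.25, adjusted p = 0.00149) and Etv5 (1.38, SE 0.20, adjusted p = 0.0158) were called by limma, out of 9 feedback genes that passed the filter on low values. In this comparison 2.16% of genes were called higher and 4.23% in either direction (592 genes, but 163 without WT tumour 2 and 1363 without WT tumour 3). All 3 WT tumours were above all 3 WT non-tumour livers for each feedback gene except Phlda1, including Etv4, which did not pass the filter. Of all genes tested, 11.0% were higher without overlap. An exact permutation test of 3 against 3 cannot go below 0.10. The differences that were not called were 1.79 for Dusp4, 1.29 for Spry2, 1.11 for Spry4, 1.06 for Dusp6, 0.76 for Spry1, 0.42 for Spred1 and -1.49 for Phlda1 (SE 0.65, adjusted p = 0.269, limma). With 1 sample left out that of Spry1 ranged from 0.47 to 0.92 and that of Spred1 from 0.28 to 0.54. Without WT non-tumour 2 the difference of Dusp4 was 2.29 and was called (adjusted p = 0.0295, limma). The call of Etv5 was lost without WT non-tumour 1 or 3 or WT tumour 1 or 2 (adjusted p = 0.0715 to 0.0783, limma), and that of Dusp5 was not lost with any sample left out.

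Within GKO mice alone, Dusp5 (3.54, SE 0.35, adjusted p = 0.00465) and Dusp4 (1.04, SE 0.20, adjusted p = 0.0221) were called by limma, of 10 tested. Here 7.75% of genes were called higher and 11.7% in either direction (1652 genes, but 229 without GKO non-tumour 3, 619 without GKO non-tumour 2, 747 without GKO tumour 3 and 1001 without GKO tumour 1). Dusp4 and Etv4 passed the filter only through the tumours, and of the other 8 genes 1, Dusp5, was called. Dusp4, Dusp5 and Etv4 were higher in the GKO tumours without overlap, against 25.7% of all genes tested, and Phlda1 was lower without overlap, against 12.7%. The call of Dusp4 was lost without GKO non-tumour 2 or 3 or GKO tumour 2 or 3 (adjusted p = 0.0513 to 0.104, limma). It was also lost with all 18 samples in 1 fit. Without GKO tumour 1, 8 genes were called higher: Dusp4, Dusp5, Dusp6, Spry1, Spry2, Spred1, Etv4 and Etv5. That fit compares 2 tumours with 3 livers.

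**Figure D3:**
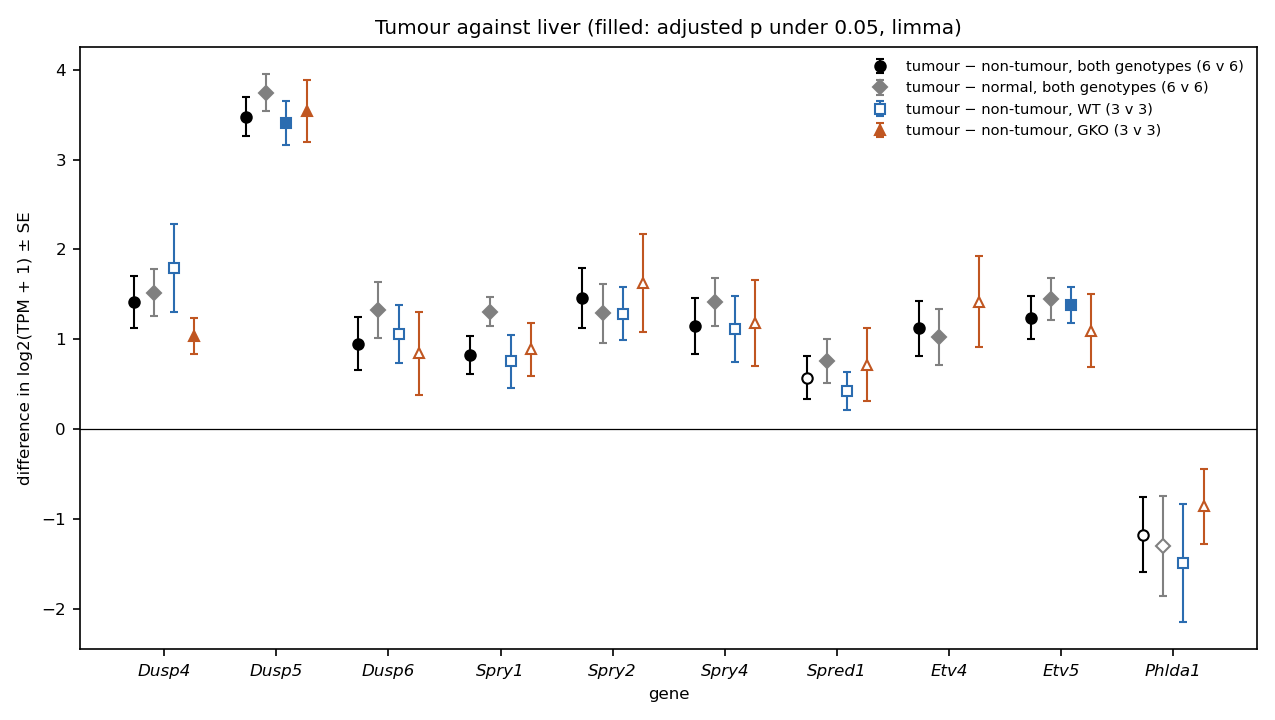
Difference in log2(TPM + 1) between tumours and livers for each feedback gene, with bars of 1 SE, for 4 comparisons (black, tumours against non-tumour livers; grey, tumours against normal livers; blue and orange, tumours against non-tumour livers in WT and in GKO mice), where filled symbols mark an adjusted p under 0.05. All differences lie above 0 except those of Phlda1, and Dusp5 lies between 3.41 and 3.74 in each comparison.

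GKO tumour 1 was the lowest of the 6 tumours for 9 of the 10 feedback genes, all but Phlda1, whereas it was the lowest tumour for 17.2% of the genes tested. Only Dusp5 and Etv4 were above all 6 non-tumour livers in this tumour, and only Dusp5 was above all 12 livers. Each of the other 5 tumours had 8 or 9 of the 10 genes above all 6 non-tumour livers, the exceptions being Phlda1 in each of them and Dusp4 in GKO tumours 2 and 3. Of the 59 other pathway genes tested, 16 (27.1%) were lowest in GKO tumour 1, among them all 5 of the other feedback inhibitors, while none of 7 other Dusp phosphatases and 2 of 11 other ERK target genes were. Its level of Hbegf, a ligand of the EGF receptor, was 11.9 TPM, the highest of the 6 tumours (1.18 to 6.80 TPM in the others), and it held 51.5 TPM of Egr1, against 0.609 to 16.8 TPM in the non-tumour livers. It was also the most deeply sequenced library.

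GKO and WT tumours were compared to ask whether loss of miR-181ab1 changed the feedback genes within tumours. None of the 10 was called by limma or by voom on recovered reads, where limma called 0.0215% of the 13964 genes tested. At an unadjusted p under 0.05 there was 1 of 10, Dusp4, against 8.87% of all genes. For Dusp4 the mean was 1.54 ± 0.21 TPM in GKO and 5.63 ± 2.58 TPM in WT tumours (SD, n = 3 each), a difference of -1.31 (SE 0.32, unadjusted p = 0.00456, adjusted p = 0.374, limma). All 3 GKO tumours were below all 3 WT tumours, as for 4.78% of genes tested. Without WT tumour 3 the difference was -1.62 and was called (adjusted p = 0.0456, limma). The study listed Dusp4 among targets of the repressor CBX7 that were lower in GKO tumours. In its western blots, which included DUSP4, the proteins it named as lower were WNT10a and FGFR2. The RNA difference of Dusp4 given here comes from the same tumours that the study used for its list, so it is not independent evidence of a direction. The next was Dusp6, at 30.5 ± 16.5 TPM in GKO and 55.0 ± 13.2 TPM in WT tumours (SD, n = 3 each), a difference of -0.99 (SE 0.49, unadjusted p = 0.0818, adjusted p = 0.603, limma), which was -0.43 without GKO tumour 1. Dusp5 averaged 22.4 ± 11.4 TPM in GKO and 23.1 ± 2.8 TPM in WT tumours. The genes other than Dusp4, Dusp6 and Dusp5 had unadjusted p-values of 0.291 to 0.952 in limma. The feedback genes had a median difference of -0.06, and all genes tested had one of 0.09. Fibroblast and stellate markers were not called in this comparison either, but their median difference was 0.94 and 6 of 12 had an unadjusted p under 0.05, all higher in GKO tumours. The same held for 3 of 6 cholangiocyte markers (Spp1 3.33, Epcam 1.55 and Krt19 1.18), with a median of 0.92 over the list. The part of these cell types in the difference of Dusp4 was not tested.

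The rise from non-tumour liver to tumour was not shown to differ between genotypes for any feedback gene. In the interaction test (GKO rise minus WT rise, limma) none of 10 was called, where 0.0142% of genes were, and voom on recovered reads called none either. Unadjusted p-values ran from 0.201 for Dusp4 to 0.915 for Spry4, so 0 of 10 were under 0.05, against 10.5% of all genes. For Dusp4 the interaction was -0.76 (SE 0.56), and -1.25 without WT non-tumour 2 (adjusted p = 0.604, limma). At the other end of the fits with 1 sample left out it was -0.48, without WT tumour 2. The 4 genes with a miR-181 site had differences between GKO and WT tumours of -0.14 for Dusp5, -0.03 for Spry4, -0.09 for Spred1 and 0.11 for Phlda1, each smaller than its SE. Their direction was not stable: without GKO tumour 1 those of Dusp5, Spry4 and Spred1 were 0.091, 0.37 and 0.38, and without WT tumour 3 that of Phlda1 was -0.35.

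In livers without tumour the feedback genes did not differ detectably by genotype or by DEN. None was called by limma, or by voom on recovered reads, between GKO and WT non-tumour livers (9 tested), between GKO and WT normal livers (8 tested), between non-tumour and normal livers of WT mice (9 tested) or of GKO mice (8 tested). In the same order limma called 0%, 0%, 0.00744% and 0% of all genes tested, and 1, 0, 2 and 0 feedback genes had an unadjusted p under 0.05, against 5.80%, 3.96%, 24.4% and 5.20% of all genes. Among the feedback genes the lowest unadjusted p was 0.0282 (limma), for Dusp6, which was lower in GKO than in WT non-tumour livers (14.5 ± 2.5 against 26.3 ± 9.2 TPM, SD, n = 3 each). The difference of Dusp6 was -0.78, and -0.52 without WT non-tumour 2. Dusp6 and Spred1 were lower there without overlap, as were 9.32% of all genes, and Dusp5 and Spry1 were higher in GKO than in WT normal livers without overlap, as were 6.23%. WT non-tumour livers had more Dusp5 (1.31 against 0.493 TPM), Spry1 (3.29 against 1.54 TPM) and Etv5 (1.65 against 1.07 TPM) than WT normal livers without overlap, as did 31.0% of all genes tested. The median difference over all genes was 0.32 here, and after median centring the difference of Etv5 was -0.016 in place of 0.36.

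The high liver values of Dusp4 and Dusp6 came from 1 library. WT non-tumour 2 was the highest non-tumour liver for Dusp4, Dusp5, Dusp6 and Spred1, that is 4 of 10 genes, and it was so for 42.4% of all genes tested. It was the lowest for Spry2, Spry4 and Etv4. Its level of Ccnd1, which encodes cyclin D1, was 31.9 TPM, above that of all 6 tumours (11.8 to 25.9 TPM), where the other non-tumour livers had 1.11 to 3.60 TPM.

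The rest of the pathway was read from 72 genes in 7 lists, of which 59 passed the filter. In tumours against non-tumour livers 17 of these were called higher by limma and none lower, and their median difference was 0.39. Of all genes tested in this comparison, 12.2% were called higher and 20.1% in either direction, which also holds as background for the single lists. The list with the most calls was the one grouped as ERK target genes. Whether ERK drives these genes in these tumours was not tested. Of 11 other ERK target genes tested 8 rose, with a median of 1.15. Egr1, an immediate early transcription factor, had the largest difference (4.01, SE 0.53, adjusted p = 0.000476), from a mean of 4.88 to 76.5 TPM, followed by Phlda3 (2.78), Ccnd1 (2.04) and Phlda2 (1.90). Unlike Phlda1, both of its relatives in this list were thus higher in tumours. Phlda3 differed widely among WT tumours: replicates 1 and 2 had 108 and 119 TPM and replicate 3 had 8.94 TPM. Phlda2 was highest in GKO tumour 1 (25.7 TPM, against 0.982 to 9.23 TPM in the other tumours), where most feedback genes were lowest.

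Of 7 other Dusp phosphatases tested, Dusp7 (1.22, SE 0.16, adjusted p = 0.000438, limma) and Dusp16 (0.91, SE 0.20, adjusted p = 0.00928, limma) rose. Dusp7 acts on ERK and Dusp16 mainly on JNK and p38. All 6 tumours (5.70 to 10.4 TPM) were above all 6 non-tumour livers (1.86 to 3.65 TPM) in Dusp7, including GKO tumour 1. Of 5 other feedback inhibitors tested, Spred2 (0.96), a relative of Spred1, and Lrig1 (0.85), which promotes turnover of EGF receptors, rose. The medians were 0.51 over these Dusp phosphatases and 0.85 over these inhibitors. Of 4 EGF receptor ligands tested, Hbegf (1.21) and Btc (0.99) rose, and the median was 1.08. That median includes Areg, which passed the filter on low values only through the tumours. Whether genes of the other pathway lists passed it in the same way was not examined. None of 9 receptors, 1 of 14 adaptors and RAS genes (Shc1, 0.67) and 2 of 9 kinases and scaffolds (Mapk3, which encodes ERK1, 0.74, and Rps6ka3, a kinase that ERK activates, 0.56) were called. Between GKO and WT tumours none of 61 genes of these lists was called, but limma called only 0.0215% of all genes tested there. At an unadjusted p under 0.05 there were 4 of the 61, all higher in GKO tumours, against 8.87% of all genes in either direction (limma).

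**Figure D4:**
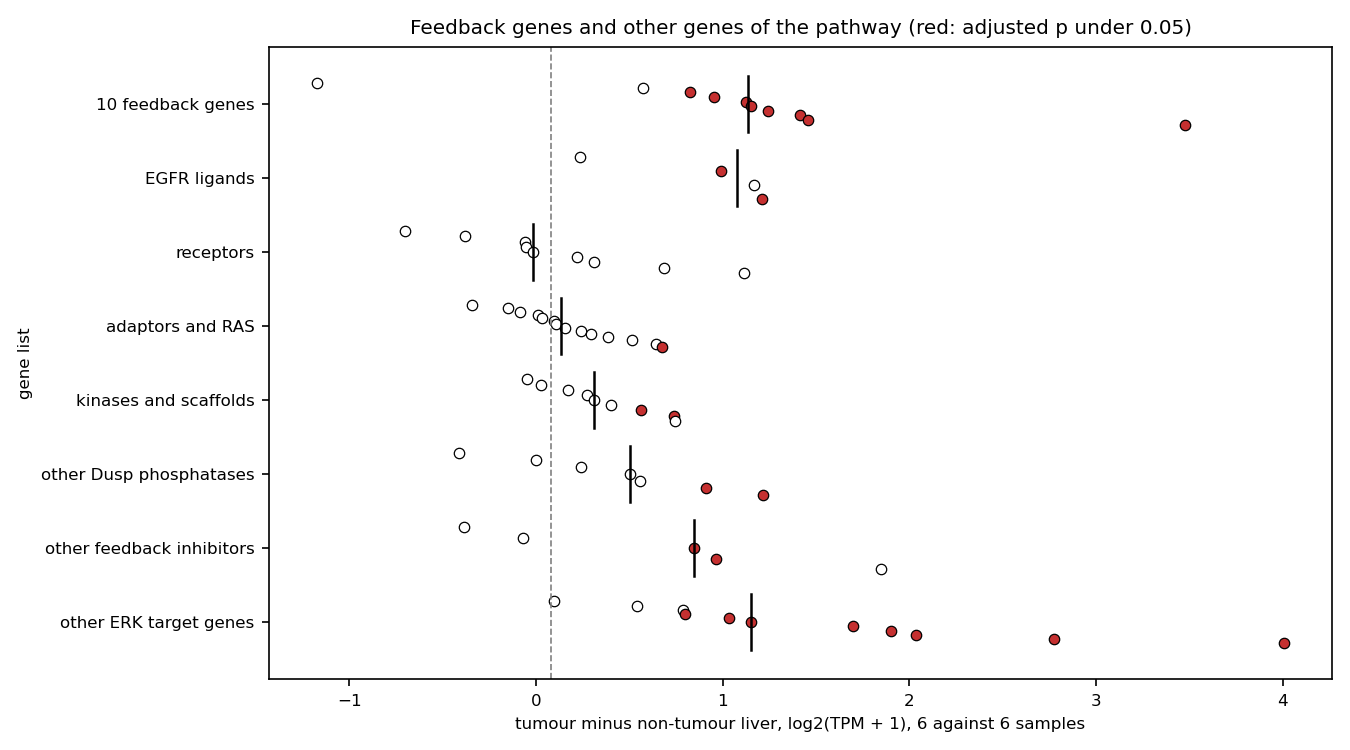
Difference in log2(TPM + 1) between 6 tumours and 6 non-tumour livers (horizontal axis) for the 10 feedback genes and for 7 lists of other pathway genes, 1 point per gene that passed the filter, red where the adjusted p was under 0.05, with a bar at each list's median and a dashed line at the median of all genes tested (0.08). The receptors centre near 0, and the ERK target genes (median 1.15) lie where most feedback genes lie.

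Genes whose pattern over the 18 samples was most like that of 1 feedback gene of each class were sought among the 11896 genes that averaged 1 TPM or more, by Pearson's r of log2(TPM + 1). For Dusp4 they were Tuba1b (r = 0.966), Mcm2 (0.949), Acbd3 (0.949), Actb (0.944) and Edem3 (0.940). Spry4 was most like Rapgef3 (0.919), 5330417C22Rik (0.902), Mycl (0.900), Fam198a (0.893) and Adamtsl5 (0.887). Etv5 went with Gpc3 (0.955), the foetal liver and tumour antigen glypican 3, then Fabp5 (0.948), Itih5 (0.945) and Clip2 (0.942). These correlations are a description, since all points share the step from liver to tumour.

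Marker transcripts of several cell types differed between tumours and livers too, and in bulk tissue fewer cells of a type and less RNA per cell cannot be told apart. The calls given here are for tumours against non-tumour livers. In that comparison 1719 of the 14106 genes tested (12.2%) were called higher and 1110 lower. Hepatocyte markers identified all 18 samples as liver tissue: their summed level was 67902 to 99632 TPM in the livers and 197840 to 234648 TPM in the tumours. Alb was the most abundant gene, 3 of 10 markers were called higher (Alb, Apoa1 and Ahsg) and 7 of 10 had a positive difference. The medians of Asgr1 (654 against 1111 TPM), Ttr (11936 against 14987 TPM) and Serpinc1 (446 against 562 TPM) were lower in tumours than in non-tumour livers. Endothelial markers, of which 5 of 11 tested were called higher (Pecam1, Cdh5, Kdr, Cd34 and Emcn), summed to 62.0, 108 and 124 TPM (lowest, median and highest) in non-tumour livers and to 100, 133 and 148 TPM in tumours, and Eng was the most abundant. GKO tumour 1 had the lowest endothelial sum of the tumours. Of 12 fibroblast and stellate markers 4 were higher (Col1a1, Col1a2, Col3a1 and Acta2) and 2 lower (Dcn and Lrat), with sums of 70.7, 115 and 168 TPM in non-tumour livers and 69.2, 128 and 250 TPM in tumours. By median Colec11 led this list in non-tumour livers (53.8 TPM) and Acta2 in tumours (27.9 TPM, against 24.7 TPM for Colec11). Of 10 macrophage markers 4 were lower (Clec4f, Timd4, Marco and Vsig4), with sums of 189, 450 and 1102 TPM in non-tumour livers and 130, 192 and 388 TPM in tumours, led by C1qa. No marker of T and NK cells (6 tested), B cells (3), neutrophils (3) or cholangiocytes (6) was called, although Spp1, the most abundant of the cholangiocyte list, brought that sum to 974 TPM in GKO tumour 2 and 567 TPM in GKO tumour 3, against 35.4 to 60.5 TPM in the other tumours. No marker was at 0 in all 18 samples. The part of these cell types in the rise of the feedback genes was not tested.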

How the data were processed

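RNA-seq values of 18 samples in 6 groups of 3 were examined, with groups taken from the labels. The authors deposited TPM, and the submitters' processing notes name mm10, STAR 2.7.3a (an aligner) and featureCounts 2.0.0 (a read counter). TPM times exonic length (GENCODE M21) gave whole reads, within 0.02, for at least 97.96% of low values (up to 30 reads) in every sample. Illumina libraries were made from total RNA of frozen tissue. Whether counting used strand is not given in the sources used here, so overlapping and antisense genes cannot be told apart.

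The test was limma's (version 3.58.1, R 4.3.3; linear model, empirical Bayes with a trend), applied to log2(TPM + 1). Genes entered it if they averaged 0.5 TPM or more over the samples compared. Fold changes on this scale understate those of low genes. P-values were adjusted over all genes tested (Benjamini-Hochberg, threshold 0.05). Only samples of a comparison entered its fit. Python 3.11.15, pandas 2.3.3, NumPy 2.4.6 and Matplotlib 3.10.9 did the rest. The procedure was tested on simulated data.

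The feedback genes, pathway lists and marker lists were chosen with earlier results of these data known. Named besides the feedback genes were, per pathway list, at most the 4 called genes with the largest difference, the 5 genes most like Dusp4, Spry4 and Etv5, and the most abundant marker of each list. One gene that this rule names is not reported here. Other called markers, and single values of named genes, were chosen after their values were seen. Alternatives were a pseudocount of 0.1, no filter, a filter at 5 TPM, quantile normalization, median centring, 1 fit to all 18 samples, eBayes without trend, a replicate block, voom on recovered reads, WT tumours 1 and 2 averaged, each sample left out, and, added after seeing the data, 2 libraries left out together. Protein sequences were not used here.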

Additional observations from a re-analysis of the deposited data

Results flagged for a closer look

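Among 30 sets of 6 samples (each feedback gene in each tissue, both genotypes together), 3 had an extreme sample separated from the rest by a gap of more than 0.625 of the whole range (Dixon's test), where chance flags about 1 set in 20. Dusp4 in WT non-tumour 2 was 2.59 TPM, where the other non-tumour livers had 0.0905 to 0.466 TPM. Etv4 in GKO tumour 2 was 5.0 TPM, where the other tumours had 0.279 to 2.04 TPM. Phlda1 in GKO normal 1 was 505 TPM, where the other normal livers had 35.8 to 87.4 TPM. Groups of 3 are too small for this test.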

How the results depend on the processing

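The count of feedback genes called in tumours against non-tumour livers was 8, and 6 to 9 with 1 sample left out (6 without GKO non-tumour 2, GKO non-tumour 3 or GKO tumour 2). It was 3 with no filter on low values, where 1213 genes were called in place of 2829, and 2 with a filter at 5 TPM, where 1662 genes were called and only 3 feedback genes were tested. Against normal livers it was 9, with 8 to 10 for 1 sample left out, 6 without filter, 2 with a filter at 5 TPM, and 7 higher and 1 lower with voom. In WT mice it was 2, with 1 to 3 for 1 sample left out, 4 without filter, 1 with a filter at 5 TPM and 1 with WT tumours 1 and 2 averaged, and genes called fell from 592 to 185 in the last. In GKO mice it was 2, with 1 to 8 for 1 sample left out, and 1 with a filter at 5 TPM (1047 genes called in all, in place of 1652). With all 18 samples in 1 fit it was 5 (2722 genes), and Dusp4 was not among them. Between GKO and WT tumours it was 0, with 0 to 1 for 1 sample left out, while genes called went from 3 to 53 without filter, 107 with all 18 samples in 1 fit and 147 without WT tumour 3. In the interaction and in the 4 comparisons of livers it was 0 under each alternative run. With the 8-base form alone 2 feedback genes had a miR-181 site, in place of 4. Apart from the smaller number of genes tested, the cause of these changes was not tested. No difference of a feedback gene between tumours and livers changed sign under an alternative. Between GKO and WT tumours 5 of 10 did. With 1 sample left out Dusp5 ranged from -0.51 to 0.091, Spry1 from -0.18 to 0.26, Spry4 from -0.58 to 0.37, Spred1 from -0.45 to 0.38 and Phlda1 from -0.35 to 0.54, and Spry1 was 0.039 with WT tumours 1 and 2 averaged. Etv5 in WT non-tumour against normal livers was -0.016 after median centring. Of 36 differences not printed, in the interaction and between livers, 24 changed sign under some alternative (59 of 574 values) and none changed its call. Between tumours and non-tumour livers 1719 genes were higher and 1110 lower, but 1378 and 1721 after median centring, and 1367 and 1628 with voom. Against normal livers these counts were 5155 and 1390, and 2405 and 3230 after median centring.

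Same-numbered samples were not treated as pairs, since the labels do not tie them to a mouse. Deviations from the group means correlated at 0.006, -0.009 and 0.245 between WT tumours and non-tumour livers and at 0.119, 0.069 and 0.041 in GKO mice. In GKO mice all 6 samples correlated best with their own number (2 of 6 in WT). Between GKO and WT samples, which come from different mice, the count was 5 of 6 for tumours, 4 of 6 for normal livers and 2 of 6 for non-tumour livers. Such matches therefore do not show which samples share a mouse. With the replicate block 8 feedback genes were called in tumours against non-tumour livers, 9 against normal livers, 2 in WT mice (361 genes in all, in place of 592) and 2 in GKO mice. In WT mice the block called Dusp4 (1.79, adjusted p = 0.0459, limma) and not Etv5 (1.38, adjusted p = 0.0511, limma).

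The limits are depth and number. Having 3 samples a group, and at most 6 reads of Etv4 in livers, leaves small differences undetectable. Most single libraries, when left out, change at least 1 call.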
